A study of Mus musculus with 30 samples.

Results

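Decorin (Dcn) and 9 other genes associated with the fibroblasts of the meninges, the membranes that wrap the brain, were followed across 30 RNA-seq libraries of mouse dorsal hippocampus. The 10 genes, Dcn, Lum, Ogn, Bgn, Fmod, Mgp, Islr, Slc6a13, Slc6a20a and Aldh1a2, were taken by symbol from the 24883 rows of the expression table, and each had 1 row. They were chosen by their values in Y397D-T3, where Dcn averaged 0.456 of its level in homecage mice, so every comparison that uses Y397D-T3, and every comparison of Dcn with the homecage mice, is given below as a description with no test. All 10 genes passed the filter of a mean of at least 1 FPKM (fragments per kilobase of transcript, scaled by the mapped fragments of the library), which kept 13184 rows for testing. FPKM is corrected for transcript length, so levels of different genes can be set side by side.

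The study compared 5 conditions with 6 mice each, 1 library per mouse, from single-housed wild-type male C57BL/6J mice of 2 to 4 months. All mice received an infusion of the transfection reagent in vivo-jetPEI into the dorsal hippocampus. VEH-HC mice were given the reagent without DNA and were only handled in the homecage. VEH-T10 and VEH-T3 mice were given the same vehicle and were trained in object location memory (OLM), a task in which mice learn where objects stand, for 10 min (threshold) or 3 min (subthreshold). Y397F-T10 mice carried a plasmid for HA-tagged mouse CREST with the Y397F change, tyrosine to phenylalanine (phospho-null), and were trained for 10 min, and Y397D-T3 mice carried the Y397D version, with aspartic acid instead (phospho-mimetic), and were trained for 3 min. CREST (Ss18l1) is a subunit of a neuronal chromatin remodeling complex, and the plasmids used a miniCaMK2 promoter, which is active in excitatory neurons. Whether meningeal cells took up the plasmids was not measured here. Tissue of trained mice was frozen 1 h after training. There was no condition in which a plasmid was combined with the homecage, and none with a wild-type CREST plasmid.

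Of the genes, 5 encode small leucine-rich proteoglycans, secreted proteins that bind collagen fibers and growth factors of the extracellular matrix: decorin (Dcn), lumican (Lum), osteoglycin (Ogn), biglycan (Bgn) and fibromodulin (Fmod). Mgp encodes matrix Gla protein, an inhibitor of calcification, and Islr encodes a leucine-rich repeat protein of stromal cells. Slc6a13 encodes the GABA transporter GAT2, Slc6a20a a transporter of proline, and Aldh1a2 an enzyme that makes retinoic acid, which the meninges release during brain development. In brain, fibroblasts lie in the meninges, around larger vessels and in the stroma of the choroid plexus, so their RNA enters a hippocampal dissection with the membranes and vessels that come along. In bulk tissue, fewer cells of a type and less RNA per cell cannot be told apart.

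On the mouse genome build mm10, Dcn (chr10:97479609-97518143, plus strand) and Lum (chr10:97565128-97572703, plus strand) are neighbors with 47.0 kb between them. Ogn (chr13:49608046-49624501, plus strand) lies 15.2 kb from its relative Omd and inside Cenpp, which is read from the opposite strand. Slc6a20a (chr9:123634770-123678885, minus strand) has its close relative Slc6a20b 2.2 kb away. Slc6a20b was listed at 0.00523 to 0.26 FPKM, far under the levels of Slc6a20a, although reads that fit both copies could have been assigned to either. Islr (chr9:58156268-58204306, minus strand) overlaps Islr2 on the same strand. It is not given in the sources used here whether the fragments were assigned by strand, so the values of Ogn may hold fragments of Cenpp. Assignment by strand would not separate Islr from Islr2, so the values of Islr may hold fragments of Islr2.

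The promoters of 4 genes, Ogn, Slc6a20a, Fmod and Aldh1a2, are shown because these genes varied together closely from library to library, as described below. Each sequence holds the 100 bases before the RefSeq start (GRCm38.p6), 5′ to 3′ on the strand of the gene. Capitals mark matches, on either strand, to the TATA box (searched for as TATAAA), the CCAAT box (by those letters), the GC box (searched for as GGGCGG) and the E-box (searched for as CANNTG), and no matches overlapped in the windows shown.
Ogn, chr13:49607915-49608014, plus strand: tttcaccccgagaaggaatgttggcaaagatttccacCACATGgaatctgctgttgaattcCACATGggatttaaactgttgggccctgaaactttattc
Slc6a20a, chr9:123678833-123678932, minus strand: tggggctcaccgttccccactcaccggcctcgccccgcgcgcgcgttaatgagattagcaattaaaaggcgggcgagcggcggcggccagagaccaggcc
Fmod, chr1:134037154-134037253, plus strand: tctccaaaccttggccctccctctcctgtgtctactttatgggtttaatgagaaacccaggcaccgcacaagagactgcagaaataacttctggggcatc
Aldh1a2, chr9:71215689-71215788, plus strand: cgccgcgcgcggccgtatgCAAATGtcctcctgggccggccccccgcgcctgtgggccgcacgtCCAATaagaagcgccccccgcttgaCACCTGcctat
Ogn held a pair of E-box letters in the same form, and Aldh1a2 held 2 E-boxes of different form and a CCAAT box. None of the 4 motifs stood in the windows of Slc6a20a and Fmod. Of 32851 windows of this length, 34.4% held an E-box, 18.9% a CCAAT box, 24.7% a GC box and 5.56% a TATA box, so these matches are common and no motif was shared by all 4 promoters.

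Libraries differed in the levels of markers of tissue outside the hippocampus. The sum of 10 choroid plexus markers, led by the thyroxine carrier Ttr, ran from 929 to 5670 FPKM among VEH-HC mice, 11.4 to 4530 among VEH-T10 mice, 30.4 to 10500 among Y397F-T10 mice, 31.4 to 12900 among VEH-T3 mice and 15.9 to 2870 among Y397D-T3 mice. The 3 libraries Y397F-T10 mouse 2, Y397F-T10 mouse 4 and VEH-T3 mouse 4 held over 6000 FPKM of Ttr. The sum of 6 CA1 pyramidal neuron markers, 161 to 240 FPKM over all libraries, varied far less. Relative depth, read from the single-fragment steps of weakly expressed rows, lay between 0.814 and 1.25 of the median library. Absolute read totals were not given, so the spread among mice is the measure of precision.

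Dcn was the gene of the set with the clearest order among conditions, which its choice by the Y397D-T3 and VEH-HC values partly fixed. In VEH-HC its lowest, median and highest values were 17.1, 20.0 and 27.9 FPKM. The corresponding values were 9.98, 14.5 and 15.8 FPKM in VEH-T10, and 11.6, 15.8 and 20.3 FPKM in VEH-T3. Every VEH-T10 mouse lay below every VEH-HC mouse, whereas VEH-T3 overlapped with both. Y397F-T10 spanned 8.72, 15.7 and 32.6 FPKM, the widest spread of Dcn in any condition, because mouse 1 was the highest of all 30 libraries. Y397D-T3 held 6.78, 10.0 and 10.9 FPKM, and all 6 of its mice lay below all mice of VEH-HC and of VEH-T3. From highest to lowest, the means ± SD (n = 6) were 21.0 ± 3.63 among VEH-HC mice, 16.9 ± 8.59 among Y397F-T10 mice, 15.8 ± 3.36 among VEH-T3 mice, 13.5 ± 2.22 among VEH-T10 mice and 9.6 ± 1.59 FPKM among Y397D-T3 mice. The middle 3 conditions overlapped with each other throughout.

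**Figure D1:**
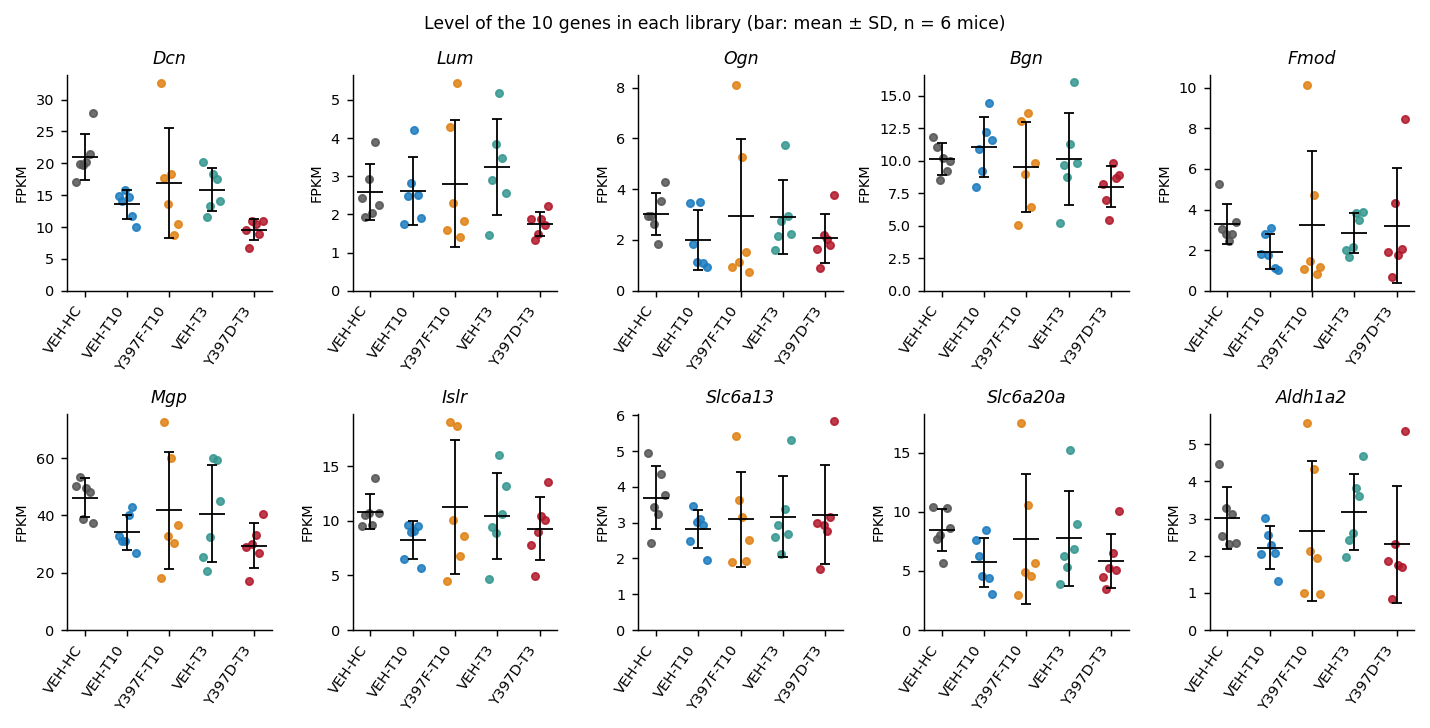
Level of each of the 10 genes in FPKM (y axes, from 0) in the 5 conditions (x axes). Each point is 1 mouse, and the bar and whiskers give the mean ± SD of 6 mice. For Dcn, Y397D-T3 lies below VEH-HC without overlap and Y397F-T10 mouse 1 stands at 32.6 FPKM, while the other genes have overlapping conditions and their highest points mostly in Y397F-T10, VEH-T3 or Y397D-T3.

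Dcn after threshold training was 0.644 of its homecage level, a difference of -0.60 on the log2(FPKM + 1) scale with a standard error of 0.199 in limma across all 30 libraries. Groups without overlap were seen in 2.43% of all tested rows in this comparison, and in 0.819% of rows the difference was called at an adjusted p under 0.05. The homecage values of Dcn had a part in its choice, so the separation is not independent of that choice and no p-value is given for it.

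Markers of neighboring tissue were lower in the same comparison. The 5 deep cortical markers summed to 19.2 to 24.1 FPKM in VEH-HC and to 15.0 to 18.2 FPKM in VEH-T10, without overlap. Of these, 3 passed the filter and 1 was called: Ctgf, a matrix-associated growth factor gene of the deepest cortical layer, was lower in VEH-T10 by limma (log2 difference -0.92, adjusted p = 0.0479), a call that 1 of 12 repeats with 1 library left out kept. The 6 thalamic markers summed to 41.7 to 72.7 against 33.1 to 46.5 FPKM, and 1 of 6 was called, the glutamate transporter gene Slc17a6 (log2 difference -1.08, adjusted p = 0.031 in limma), a call kept in 4 of 12 such repeats. None of the 10 choroid plexus markers was called in VEH-T10, at a median log2 difference of -1.74. Of these 10, 3 had an unadjusted p under 0.05 in limma, beside 14.9% of all rows. No marker of these lists was at 0 in all mice of a condition. Their part in the difference of Dcn was not tested.

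The difference of Dcn from the homecage pointed the same way in the other 2 conditions without the Y397D plasmid, which share the VEH-HC mice. VEH-T3 was 0.754 of VEH-HC, a log2 difference of -0.40 (SE 0.199). Y397F-T10 was 0.805 of VEH-HC, a log2 difference of -0.41 (SE 0.199), which was -0.61 without mouse 1. Between the vehicle conditions with 10 and 3 min of training, the log2 difference of Dcn was -0.20 (SE 0.199, limma adjusted p = 0.822). Between Y397F-T10 and VEH-T10 it was 0.19 (SE 0.199, limma adjusted p = 1.0), and it was -0.01 without Y397F-T10 mouse 1.

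In Y397D-T3, the condition by which Dcn was picked, Dcn was 0.456 of VEH-HC and 0.606 of VEH-T3, log2 differences of -1.06 and -0.66. Leaving out any single library kept these differences between -1.11 and -0.97 against VEH-HC and between -0.74 and -0.57 against VEH-T3. Dcn was the only member without overlap in either comparison. The rows without overlap made up 5.52% of all tested rows between Y397D-T3 and VEH-HC and 0.228% between Y397D-T3 and VEH-T3. These shares are given for scale, since Dcn was chosen on these values. The sum of the choroid plexus markers had a median of 128 FPKM in Y397D-T3, against 3190 in VEH-HC and 1980 in VEH-T3, and the sum of 28 further meningeal genes had a median of 129 FPKM, against 272 and 190. The part of these tissues in the Dcn values of Y397D-T3 was not tested.

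Lumican, the neighbor of Dcn, did not follow it. Lum had lowest, median and highest values of 1.92, 2.34 and 3.9 FPKM among VEH-HC mice, 1.74, 2.5 and 4.21 among VEH-T10 mice, 1.4, 2.06 and 5.45 among Y397F-T10 mice, and 1.47, 3.2 and 5.17 among VEH-T3 mice. These 4 conditions overlapped throughout, and the log2 difference between VEH-T10 and VEH-HC was 0.00 (SE 0.216, limma adjusted p = 0.997). In Y397D-T3 Lum held 1.33, 1.8 and 2.22 FPKM, with every mouse below the VEH-HC median. In Y397D-T3 both neighbors were thus lower, at log2 differences from VEH-T3 of -0.66 for Dcn and -0.57 for Lum. From VEH-HC the differences were -1.06 for Dcn and -0.36 for Lum. Lum in Y397D-T3 overlapped with VEH-HC and with VEH-T3, whereas Dcn overlapped with neither. VEH-T10 separated from VEH-HC for Dcn and not for Lum.

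Of the other proteoglycans, Bgn was the most abundant and the steadiest, at 8.51, 10.1 and 11.9 FPKM (lowest, median, highest) among VEH-HC mice, 7.99, 11.2 and 14.5 among VEH-T10 mice, 5.07, 9.39 and 13.7 among Y397F-T10 mice, 5.23, 9.71 and 16.1 among VEH-T3 mice, and 5.41, 8.41 and 9.82 among Y397D-T3 mice. Its mean was highest in VEH-T10, where Dcn was low. Ogn held 1.85, 2.95 and 4.3 FPKM among VEH-HC mice, 0.938, 1.5 and 3.49 among VEH-T10 mice, 0.746, 1.33 and 8.1 among Y397F-T10 mice, 1.6, 2.49 and 5.74 among VEH-T3 mice, and 0.88, 1.92 and 3.77 among Y397D-T3 mice. Fmod held 2.47, 2.93 and 5.24 FPKM among VEH-HC mice, 1.01, 1.78 and 3.09 among VEH-T10 mice, 0.83, 1.32 and 10.1 among Y397F-T10 mice, 1.68, 2.84 and 3.86 among VEH-T3 mice, and 0.669, 1.99 and 8.44 among Y397D-T3 mice. For Ogn and Fmod the medians of both threshold-trained conditions were the lowest, yet 1 mouse, Y397F-T10 mouse 2, held the highest value of all 30 libraries for both genes. The next highest were VEH-T3 mouse 4 for Ogn (5.74 FPKM) and Y397D-T3 mouse 6 for Fmod (8.44 FPKM). Their coefficients of variation within Y397F-T10, 103% and 114%, were the largest of the set.

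Among the remaining matrix genes, Mgp had the highest level of all 10 genes, with 37.2, 48.9 and 53.4 FPKM among VEH-HC mice, 27.0, 31.9 and 42.9 among VEH-T10 mice, 18.2, 34.8 and 72.6 among Y397F-T10 mice, 20.6, 38.7 and 60.0 among VEH-T3 mice, and 17.0, 29.5 and 40.6 among Y397D-T3 mice. Every VEH-T10 mouse and every Y397D-T3 mouse lay below the VEH-HC median of Mgp, but both conditions overlapped with VEH-HC. Islr held 9.53, 10.7 and 13.9 FPKM among VEH-HC mice, 5.68, 9.07 and 9.63 among VEH-T10 mice, 4.52, 9.33 and 19.1 among Y397F-T10 mice, 4.64, 10.0 and 16.1 among VEH-T3 mice, and 4.99, 9.52 and 13.6 among Y397D-T3 mice. VEH-HC and VEH-T10 overlapped for Islr by a narrow margin, and the other conditions spread widely on both sides.

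The transporters and the retinoic acid enzyme had their highest medians in vehicle mice of the homecage or of subthreshold training, and spread most widely in Y397F-T10. Their coefficients of variation there were 71.0% for Slc6a20a, 43.0% for Slc6a13 and 70.9% for Aldh1a2, and the next widest were 51.8% in VEH-T3 for Slc6a20a and 42.7% and 68.4% in Y397D-T3 for the other two. Slc6a20a held 5.71, 8.36 and 10.4 FPKM among VEH-HC mice, 3.05, 5.43 and 8.43 among VEH-T10 mice, 2.93, 5.3 and 17.5 among Y397F-T10 mice, 3.93, 6.58 and 15.3 among VEH-T3 mice, and 3.51, 5.18 and 10.0 among Y397D-T3 mice. Slc6a13 held 2.43, 3.6 and 4.93 FPKM among VEH-HC mice, 1.95, 2.98 and 3.46 among VEH-T10 mice, 1.89, 2.84 and 5.41 among Y397F-T10 mice, 2.12, 2.81 and 5.32 among VEH-T3 mice, and 1.69, 2.96 and 5.83 among Y397D-T3 mice. Aldh1a2 held 2.3, 2.82 and 4.47 FPKM among VEH-HC mice, 1.31, 2.19 and 3.0 among VEH-T10 mice, 0.964, 2.04 and 5.57 among Y397F-T10 mice, 1.96, 3.11 and 4.68 among VEH-T3 mice, and 0.83, 1.81 and 5.36 among Y397D-T3 mice. All conditions overlapped for these 3 genes.

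By level over all libraries, the order of means was Mgp (38.4 FPKM), Dcn (15.4), Islr (10.0), Bgn (9.76), Slc6a20a (7.1), Slc6a13 (3.2), Fmod (2.89), Aldh1a2 (2.67), Lum (2.6) and Ogn (2.59). The last 4 differed by much less than their SDs, which ran from 1.11 to 2.11 FPKM, and so did Islr and Bgn.

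None of the 9 genes other than Dcn was called by limma at an adjusted p under 0.05 in any of the 5 tested comparisons, and neither was Dcn in the 2 that do not use VEH-HC. Between VEH-T10 and VEH-HC, 8 of 10 genes were lower, beside 59.7% of all tested rows. The median log2 difference was -0.40, or -0.37 without Dcn, against -0.03 over all tested rows. Of the 9 genes other than Dcn, 0 had an unadjusted p under 0.05 in limma, beside 14.9% of all rows. In the exact permutation test, 4 of the 9 (Fmod, Mgp, Islr and Slc6a20a) had an unadjusted p under 0.05, beside 18.2% of all rows. For these 4 the exact p-values were 0.0281, 0.013, 0.0108 and 0.0433, and the adjusted p-values in limma were 0.496, 0.466, 0.55 and 0.422. With only the 12 libraries compared in the limma fit, the adjusted p-values were 0.128, 0.0745, 0.14 and 0.17, so none of the 4 passed the adjusted threshold in either fit.

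The other comparisons with VEH-HC gave medians nearer 0 over all libraries. Between Y397F-T10 and VEH-HC, 9 of 10 genes were lower, beside 63.7% of all rows. The median log2 difference was -0.26 with or without Dcn, against -0.04 over all rows. None of the 9 genes other than Dcn had an unadjusted p under 0.05 in limma or in the exact permutation test, the latter passed by 16.9% of all rows, while 1.13% of rows were called and 1.8% did not overlap. Without the 3 libraries over 6000 FPKM of Ttr, of which 2 belong to Y397F-T10, 10 of 10 genes were lower at a median of -0.59, beyond the -0.40 of VEH-T10. Ogn then went from -0.32 to -0.94, with a limma adjusted p of 0.0246, in a fit that called 782 of the 13184 rows, against 149 before. The other genes ran from -0.35 for Lum to -0.99 for Fmod. The order of the 2 threshold-trained conditions by their distance from VEH-HC thus turned with these libraries.

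Between VEH-T3 and VEH-HC, 8 of 10 were lower, beside 61.0% of all rows. The median was -0.15, or -0.12 without Dcn, against -0.04 over all rows. Without the Ttr-rich libraries the median of the 10 was -0.25. None of the 9 genes other than Dcn had an unadjusted p under 0.05 in limma or in the exact permutation test, where 5.17% of all rows were called, 18.9% passed the exact test and 1.99% did not overlap. Between VEH-T10 and VEH-T3, 9 of 10 were lower, beside 49.0% of all rows. The median was -0.23, against 0.00 over all rows, and -0.13 without the Ttr-rich libraries. No gene had an unadjusted p under 0.05 by limma or the exact permutation test, with 0.0455% of rows called, 6.77% past the exact test and 0.387% without overlap. None of the members except Dcn, between VEH-T10 and VEH-HC, was free of overlap in any of the 5 comparisons without Y397D-T3.

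Between Y397F-T10 and VEH-T10, which compares plasmid with vehicle at 10 min of training, 9 of 10 genes were higher in Y397F-T10 at a median log2 difference of 0.17. Of all rows, 53.9% were lower, and their median was -0.01. No unadjusted p was under 0.05 in limma or the exact permutation test, 0.0% of all rows were called, 4.54% passed the exact test and 0.258% did not overlap. Without the 3 libraries over 6000 FPKM of Ttr the direction turned, at a median of -0.30. Dcn stayed at 0.09 and the other 9 log2 differences were negative, from -0.15 for Slc6a13 to -0.51 for Bgn, which alone had been negative before.

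Between Y397D-T3 and VEH-HC all 10 genes were lower, at a median of -0.36 beside -0.03 over all rows. Between Y397D-T3 and VEH-T3 9 of 10 were lower, at a median of -0.33 beside 0.00 over all rows. Of all rows, 59.6% were lower in the first comparison and 49.1% in the second. The first direction held for all 10 genes with any single library left out, although Fmod came as near 0 as -0.0185 without Y397D-T3 mouse 2. The second was less steady. Leaving out 1 library gave between 7 and 10 lower genes, and the log2 difference ran from -0.34 to 0.16 for Fmod, from -0.31 to 0.02 for Islr and from -0.15 to 0.13 for Slc6a13. Without the Ttr-rich libraries, of which VEH-T3 mouse 4 enters here, 7 of 10 were lower at a median of -0.19.

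**Figure D2:**
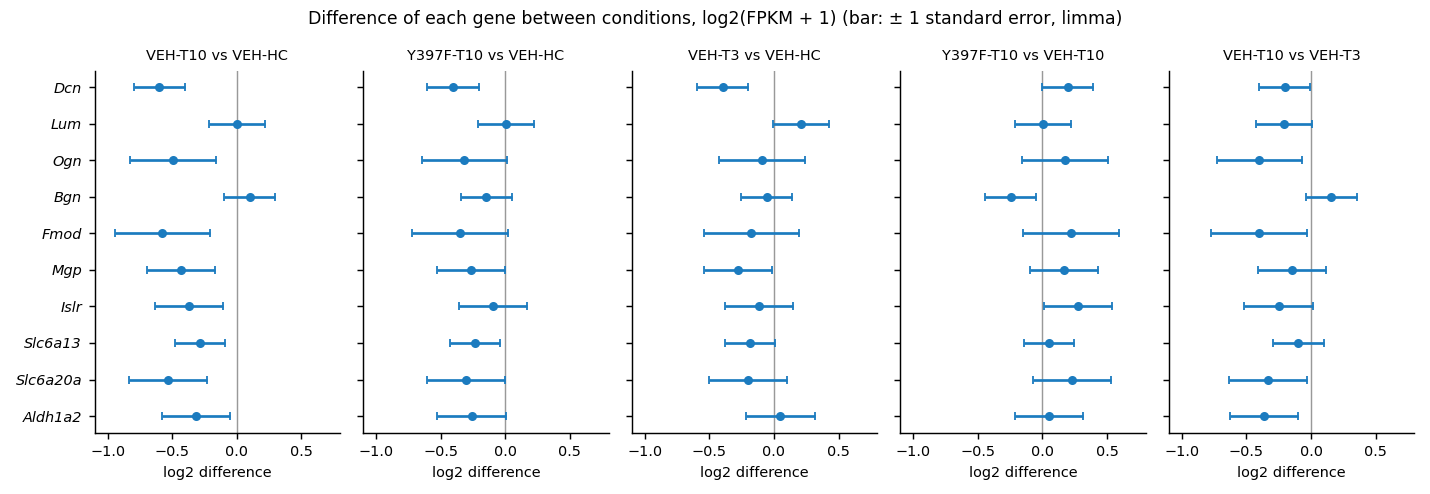
Difference of each gene (y axis) in the 5 comparisons without Y397D-T3, on the log2(FPKM + 1) scale (x axes), as estimated by limma with ± 1 standard error. Dcn stands farthest from 0 between VEH-T10 and VEH-HC (-0.60), most genes lie left of 0 against VEH-HC, and right of 0 between Y397F-T10 and VEH-T10.

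The label of meningeal fibroblast genes was checked by asking whether the genes varied together among mice of the same condition. Each gene's log2(FPKM + 1) values, less the mean of its condition, were correlated over the 30 libraries, which are not free of shared tissue content and depth, and the correlations are descriptions. Among the 9 genes other than Dcn, Pearson's r of the 36 pairs ran from 0.392 to 0.903 with a median of 0.727, and Spearman's rho from 0.382 to 0.862. The closest pairs were Fmod with Aldh1a2 and Ogn with Slc6a20a, and the loosest was Bgn with Slc6a13. Leaving out the 2 libraries farthest from the median of the first gene of each pair moved the median r to 0.648. These 9 genes thus moved as a block from mouse to mouse, and Islr followed the mean of the other 8 most closely (r = 0.915).

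Dcn did not move with that block over all libraries. Its r with the 9 genes ran from -0.174 with Bgn to 0.342 with Fmod, and its r with their mean was 0.165 (rho 0.363). A similar r was common, since 48.2% of the other tested rows were at least as close to the mean of the 9 genes as Dcn was. By this measure the data go against placing Dcn with the other members. That result rested on 2 libraries, chosen after their values were seen. Without Y397F-T10 mouse 1, r of Dcn with the mean of the 9 genes was 0.505, and without both Y397F-T10 mouse 1 and VEH-T3 mouse 1 it was 0.658 (rho 0.669). Leaving out the 2 libraries farthest on the mean of the 9 genes, Y397F-T10 mice 1 and 2, gave 0.502. Within single conditions of 6 mice, the median r of Dcn with the 9 genes was 0.582 among VEH-T10 mice and 0.754 among Y397D-T3 mice, but -0.105 among VEH-HC mice, 0.0448 among Y397F-T10 mice and -0.0261 among VEH-T3 mice.

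**Figure D3:**
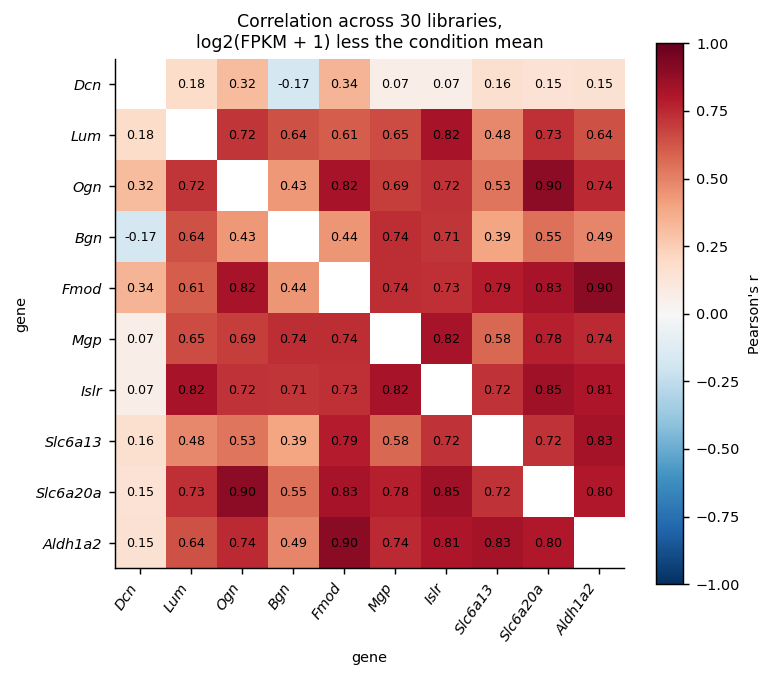
Pearson's r between each pair of the 10 genes over 30 libraries, from log2(FPKM + 1) less the condition mean, with red for positive and blue for negative values. The row of Dcn, from -0.17 to 0.34, is pale, while the 36 pairs of the other genes run from 0.39 to 0.90.

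Both libraries that stood apart combined a high Dcn with low values of the other genes. Y397F-T10 mouse 1 held 32.6 FPKM of Dcn, the highest of its 6 mice, while 5 of the 9 other genes were at their lowest of those mice. VEH-T3 mouse 1 held 20.3 FPKM of Dcn, also the highest of its condition, while 6 of the 9 others were at their lowest. In both libraries the deep cortical markers had their highest sum of the condition (20.8 and 28.1 FPKM) and the oligodendrocyte markers their lowest (1060 and 1180 FPKM). Their choroid plexus sums were 30.4 and 31.4 FPKM, the lowest of their conditions, and the median FPKM over all rows was 1.1 in each, the lowest of the 30 libraries. The part of these features in the level of Dcn was not tested. By contrast, in Y397D-T3 mouse 2 Dcn and 8 of the other 9 genes were all at their lowest, and in Y397D-T3 mouse 6, 8 of the 9 were at their highest and Dcn was the second highest.

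**Figure D4:**
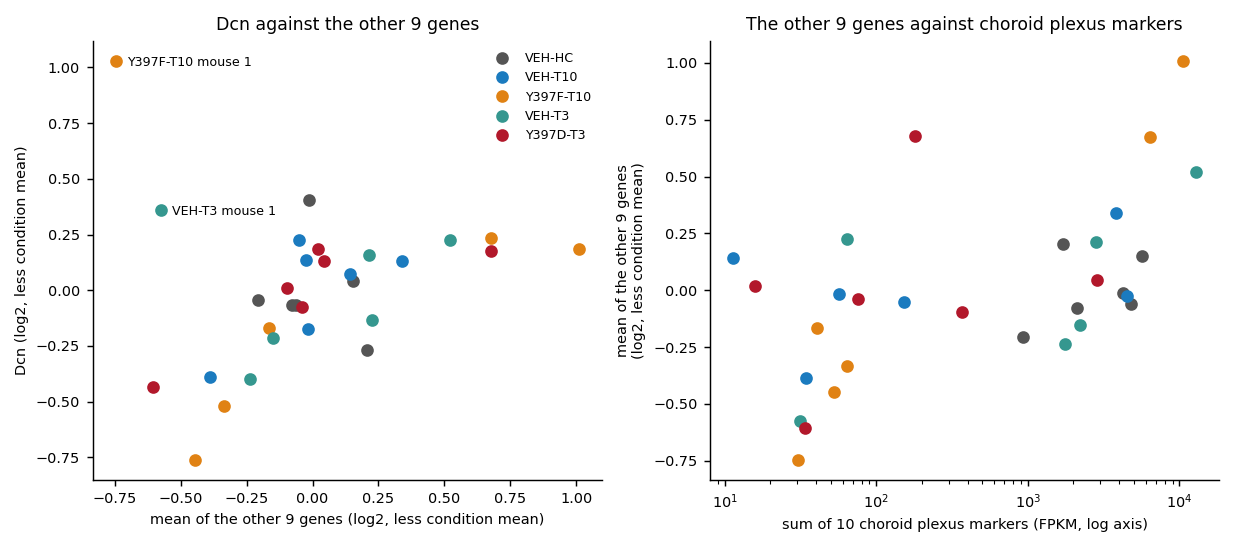
Left, deviation of Dcn from its condition mean (y axis, log2) against the mean deviation of the other 9 genes (x axis, log2). Right, the mean deviation of the 9 genes (y axis, log2) against the sum of 10 choroid plexus markers (x axis, FPKM, log axis). Each point is 1 library, and Y397F-T10 mouse 1 and VEH-T3 mouse 1 stand at the upper left of the left panel, away from the rising band of the others, while the 3 libraries with the largest choroid plexus sums have high values of the 9 genes.

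The rows most like each pattern were named by the same correlation. Closest to the mean of the 10 members were Colec12 (r = 0.951), a scavenger receptor gene, Fbln1 (0.918), a matrix protein, Bmp7 (0.896), a growth factor, Ptgds (0.894), prostaglandin D synthase, Col1a2 (0.891), a collagen I chain, Coch (0.881), Phldb2 (0.863), Aebp1 (0.861), Fam117a (0.854) and Slc22a8 (0.853), an organic anion transporter. Several of these, such as Col1a2, Ptgds and Fbln1, are well known from fibroblasts of the meninges. Closest to Dcn alone were Col23a1 (r = 0.803), a transmembrane collagen, Tpbg (0.8), Slc19a2 (0.778), a thiamine transporter, Cpne2 (0.763) and Wdr6 (0.743). The lists had no row in common. The 5 rows like Dcn had r between -0.173 and 0.179 with the mean of the 9 other members. Without Y397F-T10 mouse 1, their r with Dcn was 0.664 to 0.759. These rows were picked by that r over the same libraries, so the remaining r is not independent of the choice. Tpbg, Slc19a2, Cpne2 and Wdr6 had their highest value of the 30 libraries in Y397F-T10 mouse 1, and Col23a1 did not. Their r without VEH-T3 mouse 1 was not computed.

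Over all libraries, further meningeal genes varied with the 9 members more than with Dcn. All 28 genes of a list of other meningeal genes were measured and 24 passed the filter, of which 20 had r over 0.5 with the mean of the 9 genes, beside 14.8% of all other tested rows. With Dcn, 0 of 24 had r over 0.5, beside 2.17% of all rows. This contrast too depended on the 2 libraries that stood apart. Without Y397F-T10 mouse 1, 5 of 24 had r over 0.5 with Dcn and 19 with the mean of the 9 genes. Without VEH-T3 mouse 1 as well, 9 of 24 had r over 0.5 with Dcn, beside 6.49% of all rows, and 17 with the 9 genes, beside 9.89%. The 3 most abundant, Igfbp2, Igf2 (both of the insulin-like growth factor system) and Serpinf1, averaged 81.9, 42.0 and 12.1 FPKM. None of the 24 was called in any tested comparison by limma. In each of VEH-T10 and Y397F-T10 against VEH-HC, 1 had an unadjusted p under 0.05, beside 14.9% and 16.9% of all rows. In the other 3 comparisons 0 did. The median log2 difference of the 24 was -0.18 between VEH-T10 and VEH-HC and -0.24 between Y397D-T3 and VEH-HC, both nearer 0 than that of the members.

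Choroid plexus epithelium shared variation with most of these genes as well. All 10 of its markers had r over 0.5 with the mean of the 9 genes, and 0 of 10 with Dcn, but 9 of 10 exceeded it with Dcn once Y397F-T10 mouse 1 and VEH-T3 mouse 1 were left out. Gene by gene over all libraries, r with Ttr was 0.756 for Ogn, 0.709 for Lum, 0.677 for Slc6a20a, 0.548 for Islr, 0.531 for Mgp, 0.508 for Bgn, 0.408 for Fmod, 0.39 for Aldh1a2, 0.193 for Slc6a13 and 0.17 for Dcn. Over all libraries, Slc6a13 and Dcn thus had the lowest r with Ttr. Without the 2 libraries farthest in Ttr, r was 0.677 for Ogn and 0.0409 for Slc6a13. Of 6 ependymal markers, 5 had r over 0.5 with the 9 genes, and so did 2 of 6 endothelial, 1 of 8 mural cell, 0 of 4 blood, 0 of 2 tested border macrophage, 1 of 6 thalamic and 0 of 6 CA1 markers. Of all other tested rows, 14.8% had such an r. By these counts, the variation shared by the 9 genes was found more often in markers of the membranes and ventricle lining than in those of vessels, blood or neurons.

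The other genes of the members' pathways were followed in 4 lists. Of 12 further small leucine-rich proteoglycan genes, 3 passed the filter. Prelp, a relative of Fmod on the same chromosome, averaged 14.8 ± 3.63 FPKM (SD, n = 6) among VEH-HC mice, 9.92 ± 3.75 among VEH-T10 mice, 13.8 ± 8.22 among Y397F-T10 mice, 13.2 ± 5.68 among VEH-T3 mice and 7.81 ± 0.778 among Y397D-T3 mice. Ecm2 and Tsku averaged 1.9 and 1.1 FPKM over all libraries. None of the 3 was called in a tested comparison by limma. Between VEH-T10 and VEH-HC 2 had an unadjusted p under 0.05, beside 14.9% of all rows. All 3 had r over 0.5 with the mean of the 9 members, and 0 with Dcn, or 2 without Y397F-T10 mouse 1 and VEH-T3 mouse 1.

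Around Aldh1a2, 15 of 16 genes of retinoic acid synthesis, breakdown, transport and signaling passed the filter, led by the nuclear receptor Rxrb (30.5 FPKM), the synthesizing enzyme Aldh1a1 (30.5 FPKM) and the retinal reductase Dhrs3 (10.3 FPKM). Between VEH-T3 and VEH-HC, 2 of 15 were called by limma, both lower, beside 5.17% of all rows. Rxrg, a retinoid X receptor, went from 1.94 ± 0.281 to 0.853 ± 0.777 FPKM (log2 difference -0.74, adjusted p = 0.0495 in limma). Rxra, another of these receptors, went from 8.14 ± 0.472 to 6.66 ± 0.603 FPKM (log2 difference -0.26, adjusted p = 0.0368 in limma). In the limma fit of only the 12 libraries compared, neither was called (adjusted p = 0.0881 for Rxrg and 0.083 for Rxra), and 0 of the 13184 rows were, while before adjustment 839 rows passed 0.05 upward and 1680 downward. Of 12 repeats with 1 library left out, Rxrg was called in 1 and Rxra in 3. The thalamic marker Calb2 was also lower in this comparison (log2 difference -1.37, adjusted p = 0.0299 in limma). It was called in 4 of the 12 repeats and had an adjusted p of 0.0881 in the limma fit of the 12 libraries. The part of Calb2 in the differences of the receptors was not tested. No retinoid gene was called by limma in the other 4 tested comparisons. Of the 15 genes, 3 had an unadjusted p under 0.05 in limma between VEH-T10 and VEH-HC, beside 14.9% of all rows. Between Y397F-T10 and VEH-HC 2 did, beside 16.9% of all rows, and 0 in each of the last 2 comparisons. Over all libraries, both receptors varied with Dcn (r = 0.564 for Rxrg and 0.513 for Rxra) and not with the mean of the 9 genes (r = -0.468 and -0.0335). Without Y397F-T10 mouse 1, r with Dcn was 0.342 and 0.405. It was 0.227 and 0.361 without VEH-T3 mouse 1 as well, so the relation rested largely on these libraries.

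Of the relatives of Slc6a13 and Slc6a20a, 17 of 18 listed genes of the SLC6 family were measured and 8 passed the filter. Abundant ones were the neutral amino acid transporter Slc6a17 (73.8 FPKM) and the glial GABA transporter Slc6a11 (34.9 FPKM), and neither was called by limma in a tested comparison. None of the 8 had r over 0.5 with the 9 members, at a median of -0.31, so the 2 transporters among the members varied apart from the abundant ones of their family. Decorin, biglycan and fibromodulin bind transforming growth factor beta. Of 14 genes of that ligand family, its receptors and its binding proteins, 12 passed the filter, led by Ltbp4 (14.9 FPKM), Tgfb2 (12.9 FPKM) and Tgfbr2 (7.64 FPKM). None was called by limma in any tested comparison, with 0 at an unadjusted p under 0.05, and 6 of 12 had r over 0.5 with the mean of the 9 members.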

How the data were processed

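RNA of dorsal hippocampus from 30 mice was sequenced as paired reads by the authors on 2 instrument types, not assigned to libraries in the sources used here. Per the labels, the authors' processing notes name TopHat2 2.1.1, Cufflinks 2.2.1 and mm10. The authors deposited FPKM values, 24883 rows by 30 columns, and all columns were used (0 left out). FPKM holds no read totals. The infusion preceded training by 3 days according to the labels.

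The 13184 rows averaging 1 FPKM or more were tested as log2(FPKM + 1) in limma 3.58.1 (R 4.3.3) with 1 coefficient per condition, all 30 libraries, an empirical Bayes trend and Benjamini-Hochberg adjustment over all tested rows (threshold 0.05). Adding 1 understates changes of low values. Exact permutation tests were 2-sided, on 6 against 6 mice, and were not adjusted. Both tests measure the spread between mice. The limma script was tested on simulated data. Other steps used Python 3.11.15. Coordinates come from GENCODE M21 and promoters from RefSeq, where 7 of the 10 genes had an entry; Dcn, Lum and Mgp had none.

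The 10 genes and the lists were chosen with earlier results of these data known. The text names all members, the 3 most abundant genes of each pathway list and up to 3 called ones, the 10 rows most like the members' mean and the 5 most like Dcn; Calb2, Ctgf, Slc17a6 and Ttr are named as markers, and 1 further gene is not reported here. Alternatives were a pseudocount of 0.1, no filter (18287 rows above 0 in at least 6 libraries), libraries centered on their median, the 12 libraries compared, a replicate block, rows of a symbol summed (13128 rows), unadjusted p-values and each library left out. Comparisons with Y397D-T3, and those of Dcn with VEH-HC, were left without a test. Where Dcn enters a count of members against VEH-HC, it is not read as a test result. The exact tests and the omission of libraries rich in Ttr, of Y397F-T10 mouse 1 and of VEH-T3 mouse 1 were added after seeing the data.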

Additional observations from a re-analysis of the deposited data

Results flagged for a closer look

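Of the 50 sets of 6 mice (10 genes in 5 conditions), 5 held a mouse whose distance to the next one exceeded 0.625 of the range, the limit of Dixon's test for 6 values, which chance alone passes in about 1 of 20 sets. Each was the highest of its condition. Ogn stood at 5.74 FPKM in VEH-T3 mouse 4, with 2.96 as the next value. Fmod stood at 5.24 FPKM in VEH-HC mouse 1, with 3.37 next. Islr stood at 13.9 FPKM in VEH-HC mouse 5, with 10.8 next. In Y397D-T3 mouse 6, Slc6a13 stood at 5.83 FPKM and Aldh1a2 at 5.36 FPKM, with 3.15 and 2.31 next, and this library was the highest of its condition for 8 of the 9 genes other than Dcn. VEH-T3 mouse 4 also held the largest sum of choroid plexus markers of the series, 12900 FPKM. Dcn at 32.6 FPKM in Y397F-T10 mouse 1 did not pass this limit.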

How the results depend on the processing

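None of the 9 genes other than Dcn was called in any tested comparison under the replicate block or with a pseudocount of 0.1. The same held without a filter, with centered libraries or with rows of a symbol summed. Dcn was not called under these settings in the comparisons that do not use VEH-HC. The counts of members against VEH-HC given next include Dcn for completeness only. Those values had a part in its choice, so its place in a count is not a test result for Dcn. Same-numbered mice are different animals, and their deviations correlated between -0.456 and 0.521, so the numbers do not pair them. Between VEH-T10 and VEH-HC, the members passing were 1 (Dcn alone) with only the 12 libraries compared and 1 (Dcn alone) by unadjusted p. Unadjusted exact permutation tests gave 5 there, Dcn and 4 others (Fmod, Mgp, Islr and Slc6a20a). Between VEH-T3 and VEH-HC the exact tests gave 1 (Dcn alone). Leaving out each library gave 0 to 1 members between Y397F-T10 and VEH-HC (Dcn, without Y397F-T10 mouse 1) and 0 elsewhere. Without the 3 libraries rich in Ttr, 1 member (Ogn) was called between Y397F-T10 and VEH-HC, beside 782 of the 13184 rows.

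Of 950 repeated log2 differences, 46 changed sign, none of them called. For Lum, a pseudocount of 0.1 gave -0.0232 in Y397F-T10 against VEH-HC and -0.0237 against VEH-T10, centering gave -0.000961 against VEH-T10, and leaving out the Ttr-rich libraries gave -0.35 and -0.36. That omission also turned Y397F-T10 against VEH-T10 to -0.45 (Ogn), -0.42 (Fmod), -0.23 (Mgp), -0.15 (Islr and Slc6a13), -0.25 (Slc6a20a) and -0.37 (Aldh1a2). Leaving out each library in turn gave, between Y397F-T10 and VEH-T10, ranges of -0.0123 to 0.35 (Dcn), -0.17 to 0.12 (Lum), -0.13 to 0.35 (Ogn), -0.13 to 0.39 (Fmod), -0.0189 to 0.37 (Mgp), -0.0921 to 0.14 (Slc6a13), -0.0322 to 0.41 (Slc6a20a) and -0.15 to 0.20 (Aldh1a2). Against VEH-HC they were -0.11 to 0.10 (Lum, VEH-T10), -0.17 to 0.12 (Lum) and -0.27 to 0.11 (Islr) in Y397F-T10, and -0.27 to 0.00892 (Ogn), -0.19 to 0.10 (Bgn), -0.25 to 0.0712 (Islr) and -0.0448 to 0.15 (Aldh1a2) in VEH-T3. Slc6a13 ran from -0.17 to 0.0296 between VEH-T10 and VEH-T3. The cause of these changes was not tested. Of 380 repeats for Y397D-T3, none moved a difference by more than the spread among mice, but 15 changed its sign, all against VEH-T3 (Fmod, Islr and Slc6a13). Centering raised the share of higher calls over all rows from 38.9% to 71.7% in VEH-T10, 41.6% to 71.4% in Y397F-T10 and 43.2% to 70.1% in VEH-T3 against VEH-HC. Depth limits low genes such as Ogn and Lum most, and read totals are unknown.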
